A study of Mus musculus with 8 samples.

Results

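The 9 genes described here, Tmem119, Fcrls, Siglech, Olfml3, Cx3cr1, Slc2a5, Selplg, Sparc and Cst3, encode surface and secreted proteins by which resting (homeostatic) microglia are recognised. They were taken by name, by matching their symbols to the gene list of the count matrices, and all 9 were found among the 27998 genes of the files. The cells were microglia of the lumbar spinal cord of C57BL/6 mice, sorted for YFP and counted with 10x Genomics 3′ chemistry, in which a unique molecular identifier (UMI) marks each captured RNA molecule. Control animals were Cx3cr1-yfp-creER/+, and A20 cKO animals were Cx3cr1-yfp-creER/+; Tnfaip3 fl/fl, with floxed alleles of the gene for the ubiquitin-editing protein A20. Each genotype was sampled in naive animals and 1, 2 and 3 days after bilateral transection of the sciatic nerve, a peripheral injury that spinal microglia answer by dividing. This gave 8 libraries, 1 for each group, each a pool of animals by the study's methods. The labels give no age.

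Every animal thus carried YFP and a tamoxifen-inducible Cre at 1 Cx3cr1 allele, so Cx3cr1, a member of the list, was counted in heterozygous animals and its promoter also set the sorting gate. By the methods, tamoxifen was given for recombination and experiments followed a week after its first dose, and sorted cells for sequencing were kept in medium with TGF-beta, an interleukin that activates the CSF1 receptor, and cholesterol. The 3′ tags do not check the deletion of Tnfaip3. With 1 library in each group there was no replicate and no test between groups. Ranges in brackets are 95% intervals, they cover counting error only, and they say nothing about the spread between animals.

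Microglia, the macrophages that reside in brain and spinal cord, hold in undisturbed tissue a characteristic set of transcripts that depends on TGF-beta signalling and on the transcription factors PU.1 and Sall1. Many of these transcripts encode receptors and transporters through which the cells sense neurons and extracellular cues, and others encode secreted matrix proteins and protease inhibitors. Microglia that respond to injury or inflammation commonly lower parts of this set. Of the 9 names, 6 stand for proteins at the cell surface. Tmem119 is a transmembrane protein used to mark resident microglia, Fcrls is an Fc receptor-like molecule, and Siglech is a member of the Siglec family. Cx3cr1 is the receptor for the neuronal chemokine fractalkine, Selplg is the P-selectin glycoprotein ligand, and Slc2a5 is a fructose transporter. The others are secreted: Olfml3 is an olfactomedin-domain protein, Sparc is a matricellular protein that binds collagen, and Cst3 is cystatin C, an inhibitor of cysteine cathepsins.

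Promoter windows of the 3 members with the largest differences between libraries are shown first, since these were the members 2-fold lower than naive on days 2 and 3 of A20 cKO. Each window runs from 250 bases before to 50 bases after the RefSeq start of the gene, is given 5′ to 3′ on the gene's strand, and carries in capitals the letters GAGGAA on either strand, a core that ETS factors such as PU.1 can bind.
Fcrls, chr3:87263475-87263774, minus strand, GRCm38.p6: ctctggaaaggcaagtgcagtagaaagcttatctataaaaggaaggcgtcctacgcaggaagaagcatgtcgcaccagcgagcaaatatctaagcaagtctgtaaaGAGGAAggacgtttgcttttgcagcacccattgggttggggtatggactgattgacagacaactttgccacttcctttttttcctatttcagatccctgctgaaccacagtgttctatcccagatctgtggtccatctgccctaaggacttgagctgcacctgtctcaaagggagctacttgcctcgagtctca
Slc2a5, chr4:150119094-150119393, plus strand, GRCm38.p6: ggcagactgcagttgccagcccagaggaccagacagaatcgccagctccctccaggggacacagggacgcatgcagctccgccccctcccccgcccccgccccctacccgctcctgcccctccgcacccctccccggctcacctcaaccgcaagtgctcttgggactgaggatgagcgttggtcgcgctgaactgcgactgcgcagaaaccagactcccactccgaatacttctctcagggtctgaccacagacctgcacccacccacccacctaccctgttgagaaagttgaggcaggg
Cst3, chr2:148875463-148875762, minus strand, GRCm38.p6: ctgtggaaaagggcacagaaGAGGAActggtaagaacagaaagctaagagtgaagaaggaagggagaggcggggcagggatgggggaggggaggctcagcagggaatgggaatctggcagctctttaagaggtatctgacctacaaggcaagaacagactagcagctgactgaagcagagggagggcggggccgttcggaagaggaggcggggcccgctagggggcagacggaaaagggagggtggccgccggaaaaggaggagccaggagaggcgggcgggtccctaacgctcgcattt
The letters GAGGAA were found once each in the windows of Fcrls and Cst3 and not in that of Slc2a5. RefSeq windows were matched for 7 members, all but Tmem119 and Selplg. Of these 7, GAGGAA was found in 3 (Fcrls, Cst3 and Siglech), against 28.3% of 32851 promoter windows of the same length. The letters CAGAC, a SMAD box, were found in 6 of 7 (all but Olfml3) against 49.6% of all windows. The AP-1 site TGANTCA was found in 0 of 7 against 7.81%, and the interferon response element in 0 of 7 against 3.44%. All motifs were searched on both strands, no window or site was tested for binding, and these matches are a description of letters only. Window GC content lay between 48.0% for Fcrls and 65.3% for Slc2a5, against a median of 52.7% over all windows.

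The libraries did not stand in a single even series, which bears on every comparison below. Kept cells (at least 1000 UMIs, at least 500 genes and at most 10% mitochondrial UMIs) numbered 14626 of 14883 barcodes, between 558 and 3585 for each library, with totals of 1620481 to 15817426 UMIs and medians of 2780 to 4274 UMIs per cell. The 4 A20 cKO libraries and control day 3 (the linked libraries below) shared 117 kept barcodes over their 10 pairs, a median rate of 7.27 for 1000000 cell pairs. Control naive, day 1 and day 2 shared 27 over 3 pairs (median 1.59), and the 15 pairs between both sets shared 90 (median 1.62). The ranges met, from 2.59 to 38.9 among the linked libraries and from 0.832 to 6.31 between the sets. Transcripts of several other cell types followed the same line. The 5 neutrophil markers summed to between 30.3 and 54.8 CPM (UMIs of a gene for 1000000 UMIs of the library) in the linked libraries and to at most 0.142 CPM in the other 3, where S100a8 and S100a9 were at 0. The 5 oligodendrocyte markers summed to 110–169 CPM against 23.3–36.4 CPM, and the 5 astrocyte markers to 8.23–26.7 CPM against 2.21–3.29 CPM. Monocyte markers summed to 31.8–97.6 CPM against 2.99–4.49 CPM, and neuron markers to 5.05–14.2 CPM against 2.06–4.32 CPM. Fibroblast and mural cell markers summed to 0.224–1.18 CPM against 0–0.0632 CPM. For the remaining types the ranges met. Endothelial markers summed to 27.8–48.9 against 13.7–51.2 CPM, and border macrophage markers to 1.01–3.63 against 0.498–1.33 CPM. T and NK cell markers summed to 0–0.787 against 0.142–12.9 CPM. The 6 microglia markers were found in every library, at 40384–45855 CPM in the linked and 50852–52554 CPM in the other libraries. Immediate early genes differed within each set of libraries, which does not bear on the line. Of these, 9 of 9 tested were 2-fold higher in control day 1 than in control naive (median log2 ratio 6.14), against 3.82% of genes. In A20 cKO day 1, 6 of 8 were 2-fold lower than in A20 cKO naive (median −3.45), against 1.39% of genes. Comparisons of control day 3 or any A20 cKO library with control naive, day 1 or day 2 cross this line. In those of an A20 cKO library, genotype and line cannot be told apart. In those of control day 3, time after injury and line cannot be told apart. The part of these transcripts in the results was not tested. Comparisons among the A20 cKO libraries, and of these with control day 3, lie within the linked libraries.

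In outline, the 9 genes did not move as a block. In the controls the secreted Sparc, and Olfml3 except on day 3 under 2 other scalings, stood at or above their naive level, while Cst3, Selplg, Cx3cr1 and Siglech were below it on each day after injury. In the A20 cKO libraries all 9 genes were below naive on days 2 and 3, as were 5113 of 8921 and 5409 of 8797 genes tested. For the 9 the amounts ran from 0.07 to 2.19 on the log2 scale. The smallest, that of Olfml3 on day 3, changed sign under median-of-ratios scaling. Fcrls, Slc2a5 and Cst3 were at least 2-fold lower on both days and the others were not. Levels below are CPM of the summed UMIs of each library, in the order naive, day 1, day 2 and day 3. They compare a gene with itself between libraries and not one gene with another.

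**Figure D1:**
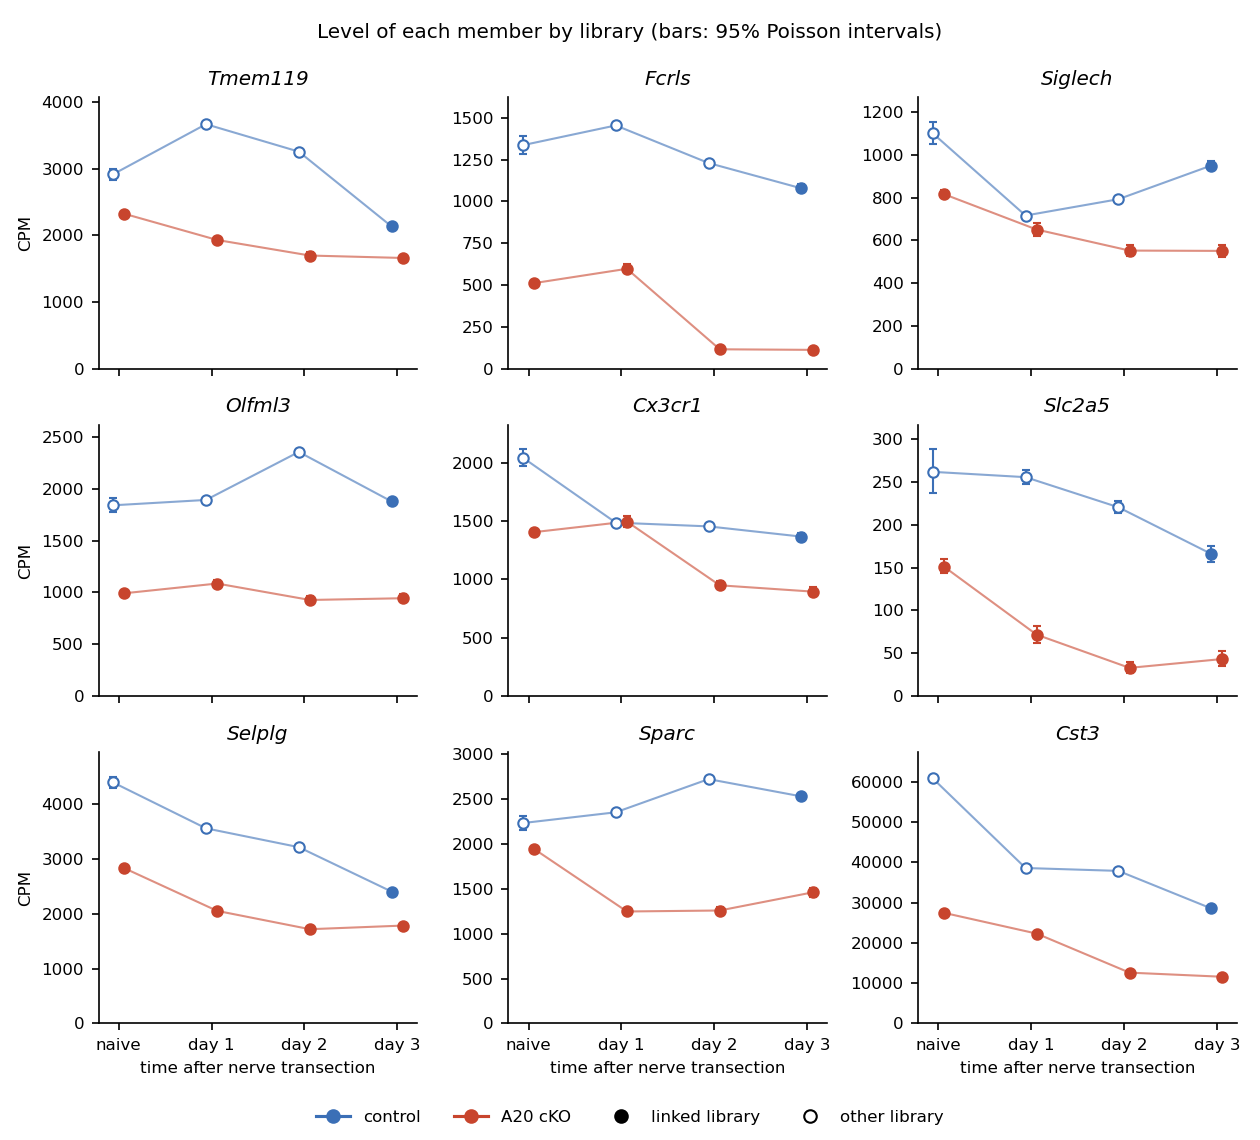
Level of each member in CPM (vertical axis from 0, a separate scale for each gene) by time after nerve transection, with control libraries in blue and A20 cKO libraries in red, filled circles for the 5 linked libraries, open circles for the other 3, and bars for 95% Poisson intervals of 1 library each. The A20 cKO line lies below the control line for every gene, except for Cx3cr1 on day 1 (1496 against 1487 CPM).

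Fcrls (ENSMUSG00000015852, chromosome 3, 87250758 to 87263738, minus strand, GRCm38) showed the widest range of the 9. It stood at 1336, 1454, 1229 and 1078 CPM in the controls and at 512, 597, 116 and 113 CPM in A20 cKO. All 4 A20 cKO libraries lay below all 4 controls, and within A20 cKO the drop came between day 1 and day 2. Its highest library, control day 1, was 12.9-fold (11.5 to 14.5) above its lowest, A20 cKO day 3. Within the linked libraries the highest was control day 3, 9.53-fold (8.48 to 10.8) above A20 cKO day 3. The A20 cKO day 2 and day 3 levels did not differ beyond counting error.

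Slc2a5 (ENSMUSG00000028976, chromosome 4, 150119283 to 150144169, plus strand) was the other strongly lowered surface gene. It stood at 262, 255, 220.3 and 166 CPM in the controls and at 151, 71.7, 33.0 and 43.3 CPM in A20 cKO. Here too every A20 cKO library lay below every control, and the drop had begun on day 1. The lowest library, A20 cKO day 2, was 7.91-fold (6.37 to 9.97) below control naive and 5.01-fold (4.10 to 6.24) below control day 3. Counting error did not separate A20 cKO day 2 from day 3 or control naive from control day 1.

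Cst3 (ENSMUSG00000027447, chromosome 2, 148871722 to 148875692, minus strand) took the largest share of UMIs of the 9 and was lower at each step in time in both genotypes. It stood at 60841, 38582, 37870.3 and 28554 CPM in the controls and at 27465, 22305, 12618 and 11597 CPM in A20 cKO. Cystatin C transcripts thus made up 6.08% of all UMIs of control naive and 1.16% of those of A20 cKO day 3, a 5.25-fold (5.18 to 5.32) difference. Within the linked libraries control day 3 was highest, 2.46-fold (2.43 to 2.49) above A20 cKO day 3. Control day 3 and A20 cKO naive differed by 0.06 on the log2 scale.

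Tmem119 (ENSMUSG00000054675, chromosome 5, 113793729 to 113800516, minus strand) stood at 2915, 3665, 3253 and 2132 CPM in the controls and at 2322, 1929.7, 1697 and 1660.1 CPM in A20 cKO. The 3 control libraries outside the linked set were the 3 highest, and A20 cKO naive lay above control day 3. Selplg (ENSMUSG00000048163, chromosome 5, 113818536 to 113832644, minus strand), separated from Tmem119 by 18019 bases on the same strand with 1 annotated gene between, stood at 4384.5, 3550.4, 3207 and 2399 CPM in the controls and at 2825, 2049, 1715 and 1781 CPM in A20 cKO. It showed the same division, with A20 cKO naive above control day 3. From highest to lowest library Tmem119 spanned 2.21-fold (2.14 to 2.28) and Selplg 2.56-fold (2.47 to 2.65), but within the linked libraries they spanned 1.40-fold (1.35 to 1.45) and 1.65-fold (1.60 to 1.70).

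Siglech (ENSMUSG00000051504, chromosome 7, 55768178 to 55778925, plus strand) stood at 1102, 717, 793 and 950.5 CPM in the controls and at 817, 651, 553 and 551 CPM in A20 cKO. It was lowest on day 1 among the controls and nearer to naive on day 3, and A20 cKO naive lay above control day 1 and day 2. Cx3cr1 (ENSMUSG00000052336, chromosome 9, 119901616 to 120069879, minus strand) stood at 2044, 1487, 1455 and 1367 CPM in the controls and at 1406, 1496, 949.9 and 896 CPM in A20 cKO. A20 cKO day 1 and control day 1 did not differ beyond counting error for Cx3cr1, and A20 cKO naive and control day 3 lay between them and the days 2 and 3 of A20 cKO. The annotated span of Cx3cr1 overlaps Gorasp1, Csrnp1 and Xirp1 on the same strand, so its counts are less certain in origin than those of the other members.

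The secreted Olfml3 and Sparc were highest on day 2 in the controls, and every control library held more of both than any A20 cKO library. Olfml3 (ENSMUSG00000027848, chromosome 3, 103722222 to 103738001, minus strand) stood at 1840.2, 1892, 2355 and 1877 CPM in the controls and at 992, 1086, 927 and 944 CPM in A20 cKO. The genotypes were apart at every time and the days within A20 cKO were close together, so that Olfml3 differed more between genotypes than between the days of A20 cKO. Control naive, day 1 and day 3 were neighbours in the order and did not differ beyond counting error. Sparc (ENSMUSG00000018593, chromosome 11, 55394500 to 55423183, minus strand) stood at 2231, 2351, 2719.8 and 2527 CPM in the controls and at 1942, 1247, 1257 and 1459 CPM in A20 cKO. Compared at the same time, the genotypes were nearest to each other in naive animals, and A20 cKO days 1 and 2 did not differ beyond counting error.

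Each comparison is given as the log2 ratio of 2 libraries, with 0.5 UMIs added, and a member is counted when it was at least 2-fold lower. Beside each first count stands the share of all tested genes that passed the same fold, a gene being tested when the pair of sums held 100 UMIs or more.

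In the controls, where the days after injury were compared with naive, the differences were small on days 1 and 2. Of 9 members 0 were 2-fold lower on day 1 (7.25% of 8866 genes) and 0 on day 2 (6.28% of 9279 genes), and these libraries lie on the same side of the line above. The median member was at −0.04 and −0.25, against −0.13 and −0.12 over all genes tested. None of the 9 was 2-fold higher, against 3.82% and 5.92% of genes. Cst3 was lowest on both days, at −0.66 (−0.67 to −0.65) and −0.68 (−0.69 to −0.67). Siglech was at −0.62 (−0.69 to −0.55) on day 1 and at −0.47 on day 2, and Cx3cr1 at −0.46 and −0.49. Tmem119 was above naive, at 0.33 (0.29 to 0.37) on day 1 and at 0.16 on day 2, and Olfml3 was at 0.36 (0.30 to 0.41) on day 2. Relative to the median gene, the day 1 ratio of Tmem119 was 0.46 and that of Cst3 −0.53. On day 3, across the line, Cst3 was 2-fold lower (1 of 9 members, against 2.32% of 8302 genes) at −1.09 (−1.10 to −1.08), followed by Selplg at −0.87 (−0.91 to −0.83), and 0 of 9 were 2-fold higher (8.76%), Sparc being at 0.18 (0.13 to 0.23). When the mean of each cell's CPM replaced the sum, Cst3 stood at −0.996 and just missed 2-fold. Olfml3, at 0.03, stood at −0.03 by that mean and at −0.02 with Cst3 left out of the totals.

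In the A20 cKO libraries, all of them linked, the ratios to their naive library reached further below 0, to −2.19, than in the controls. Yet Cst3 and Siglech on day 1 lay less far below naive than in control. So did Selplg on day 3, at −0.67 against −0.87, the control ratio being across the line. Cx3cr1 on day 1 stood at 0.09 against −0.46 in control. On day 1 Slc2a5 was 2-fold lower, at −1.07 (−1.29 to −0.87), which makes 1 of 9 members against 1.39% of 8919 genes. Sparc was at −0.64 (−0.69 to −0.59) and Selplg at −0.46 (−0.50 to −0.42), while Fcrls was above naive at 0.22 (0.14 to 0.30). On day 2, 3 of 9 members were 2-fold lower, against 2.65% of 8921 genes: Slc2a5 at −2.19 (−2.50 to −1.90), Fcrls at −2.13 (−2.30 to −1.98) and Cst3 at −1.12 (−1.14 to −1.11). On day 3 the same 3 were lower by that fold, against 2.00% of 8797 genes, with Fcrls at −2.18 (−2.36 to −2.01), Slc2a5 at −1.80 (−2.10 to −1.52) and Cst3 at −1.24 (−1.26 to −1.23). The median member was at −0.30, −0.63 and −0.65 on the 3 days, against 0.04, −0.07 and −0.10 over all genes. None of the 9 was 2-fold higher on any of the 3 days, against 1.56%, 2.86% and 1.92% of genes. Olfml3 was least affected, at 0.13, −0.10 and −0.07, and its day 3 ratio turned to 0.01 when libraries were scaled by median-of-ratios size factors.

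Steps between neighbouring days placed the loss of Fcrls between day 1 and day 2 in A20 cKO. There it was at −2.36, Slc2a5 at −1.12 and Cst3 at −0.82, and 2 of 9 members were 2-fold lower against 0.445% of 7190 genes, and 0 were 2-fold higher (1.25%). From day 2 to day 3 of A20 cKO 0 of 9 members were 2-fold lower or higher (0.412% and 0.427% of 6793 genes), and ratios ran from −0.12 for Cst3 to 0.39 for Slc2a5. Between control days 1 and 2, 0 of 9 were lower or higher by that fold (1.83% and 3.80% of 9982 genes), with ratios from −0.24 for Fcrls to 0.32 for Olfml3. Between control days 2 and 3, across the line, 0 of 9 were so (2.69% and 13.1% of 9887 genes), Tmem119 being lowest at −0.61.

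The comparison of genotypes at the same time asks how the members stood without A20. In naive animals, across the line, all 9 members were lower in A20 cKO, as were 4023 of 8641 genes. Of the 9 members 2 were 2-fold lower, against 2.22% of genes: Fcrls at −1.38 (−1.46 to −1.31) and Cst3 at −1.15 (−1.16 to −1.14). Olfml3 was at −0.89 (−0.95 to −0.83) and Slc2a5 at −0.79 (−0.95 to −0.63), and the smallest difference was that of Sparc at −0.20 (−0.25 to −0.15). None was 2-fold higher (7.43%). Set against control day 3 in place of control naive, A20 cKO naive can be compared within the linked libraries, though at another time after injury. There 1 of 9 members was 2-fold lower, against 1.49% of 9541 genes, namely Fcrls at −1.07 (−1.13 to −1.02), with Olfml3 next at −0.92 (−0.96 to −0.88), and 0 were 2-fold higher (0.964%). Cst3 was at −0.06, Slc2a5 at −0.13, Cx3cr1 at 0.04, Tmem119 at 0.12 and Selplg at 0.24. So the large naive difference of Cst3 was not seen against the linked control library, and those of Fcrls and Olfml3 were. That control library was also taken after injury, and Cst3 stood at −0.66 and −0.68 on control days 1 and 2 against control naive. Line and injury cannot be told apart here. By the mean of each cell's CPM Fcrls stood at −0.87 in A20 cKO naive against control day 3 and missed 2-fold.

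On day 1, across the line, 2 of 9 members were 2-fold lower in A20 cKO, against 3.25% of 9160 genes: Slc2a5 at −1.83 (−2.04 to −1.64) and Fcrls at −1.28 (−1.35 to −1.21). Sparc, Tmem119, Olfml3, Selplg and Cst3 lay together between −0.93 and −0.79, and Siglech at −0.14 and Cx3cr1 at 0.01 were apart from them. None was 2-fold higher (15.5%). The median of all genes was at 0.20 here, and relative to it Tmem119 was at −1.13 and Cx3cr1 at −0.19. Cx3cr1 turned to −0.07 under median-of-ratios scaling and to −0.02 with Cst3 left out of the totals, and Tmem119 passed 2-fold at −1.01 under the former. On day 2, across the line, 5 of 9 members were 2-fold lower, against 4.66% of 9486 genes. These were Fcrls at −3.40 (−3.56 to −3.25), Slc2a5 at −2.73 (−3.04 to −2.45), Cst3 at −1.59 (−1.60 to −1.57), Olfml3 at −1.34 (−1.40 to −1.29) and Sparc at −1.11 (−1.16 to −1.07). Tmem119 at −0.94 and Selplg at −0.90 were next, and 0 were 2-fold higher (10.7%).

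Day 3 is the only time at which both genotypes are linked libraries. All 9 members were lower in A20 cKO, as were 5435 of 8488 genes. Of the 9 members 3 were 2-fold lower, against 2.40% of genes: Fcrls at −3.25 (−3.43 to −3.08), Slc2a5 at −1.93 (−2.23 to −1.66) and Cst3 at −1.30 (−1.32 to −1.28). Fcrls thus held 10.5% and Slc2a5 26.2% of the control level. Olfml3 was at −0.99 (−1.05 to −0.93), and it passed 2-fold when Cst3 was left out of the totals, at −1.02. Sparc and Siglech were at −0.79, Cx3cr1 at −0.61, Selplg at −0.43 and Tmem119 at −0.36. The median member was at −0.79 against −0.12 over all genes. None of the 9 was 2-fold higher, against 1.86% of genes.

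**Figure D2:**
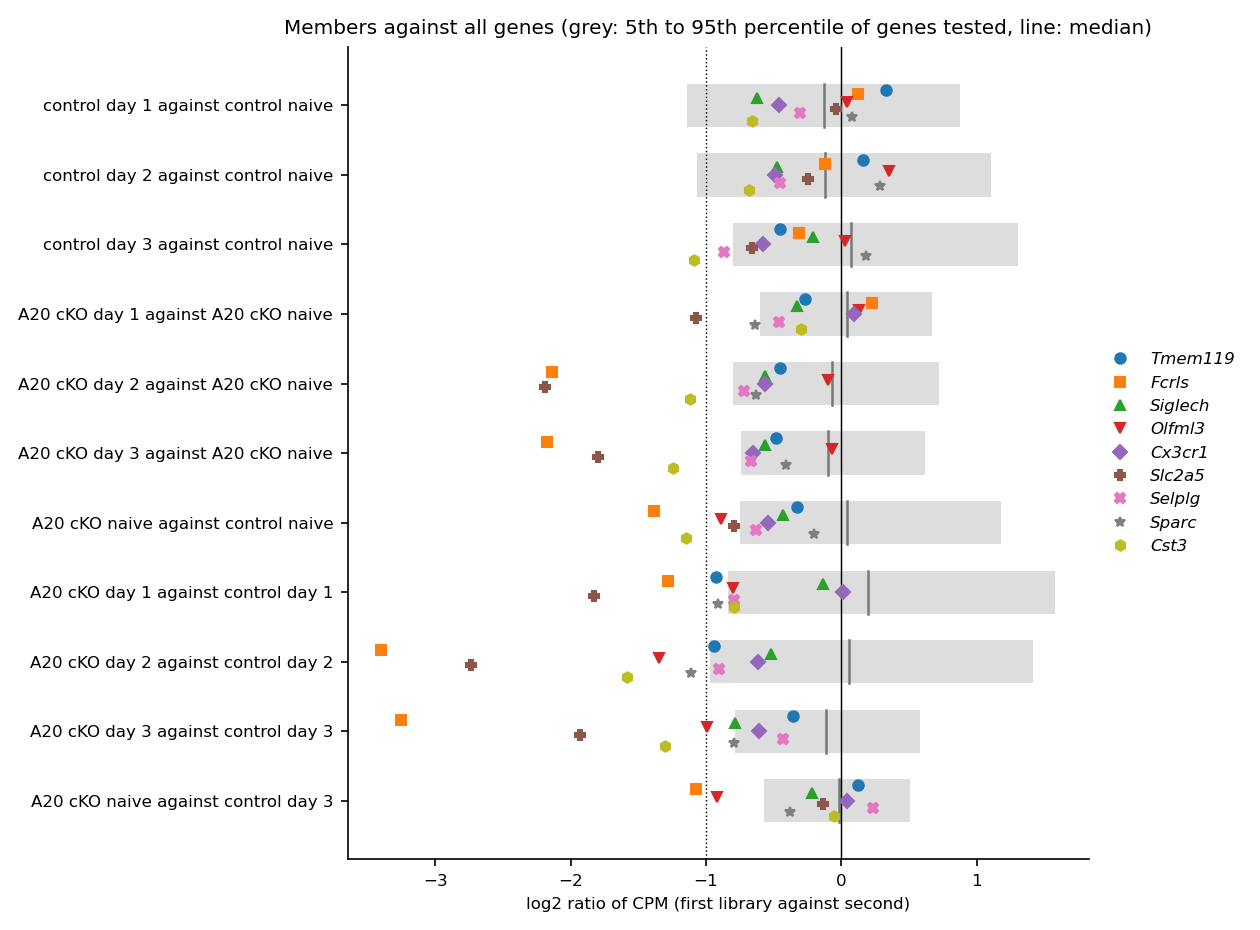
Log2 ratio of CPM (horizontal axis) of each member in 11 comparisons of single libraries, with a symbol for each gene, grey bars for the 5th to 95th percentile of all genes tested, a line in each bar for their median, and a dotted line at 2-fold lower. In A20 cKO day 3 against control day 3 Fcrls, Slc2a5 and Cst3 lie left of the dotted line, and Fcrls is at −3.25 where the 5th percentile of all genes is −0.79.

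Shares of cells with a UMI were counted beside the levels. Since depth differed, each cell was thinned to 2000 UMIs, which left 13691 cells and dropped 935 shallower ones, between 20 and 310 for each library. The share of cells with at least 1 Fcrls UMI was 88.0%, 90.9%, 87.4% and 78.5% in the controls and 49.5% (47.6 to 51.4), 50% (46.5 to 53.5), 18.7% (15.7 to 22.0) and 13.9% (11.1 to 17.2) in A20 cKO. Without thinning the A20 cKO shares were 59.96%, 59.9%, 31.9% and 26.7% of kept cells. Cells with at least 3 Fcrls UMIs made up 31.8% of control day 3 and 1.30% of A20 cKO day 3. The Fcrls shares of A20 cKO naive and day 1 did not differ beyond counting error.

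Slc2a5 was found in 38.0%, 39.6%, 35.0% and 27.7% of control cells and in 25.3%, 14.1%, 6.71% and 7.62% of A20 cKO cells. At these low counts the share follows the level closely and is no separate measure of how many cells transcribe the gene. Siglech was found in 90.4%, 73.4%, 78.9% and 83.1% of control cells and in 76.6%, 72.2%, 60.9% and 65.2% of A20 cKO cells. Cx3cr1 was found in 97.6%, 93.9%, 93.3% and 90.9% of control cells and in 90.05%, 90.1%, 79.7% and 75.8% of A20 cKO cells, although every cell had been sorted through its locus. Olfml3 was found in 95.6% to 98.1% of control cells and 77.6% to 82.0% of A20 cKO cells, and these ranges did not meet. Sparc was found in 97.01% to 99.2% of control cells and in 95.5%, 88.3%, 86.9% and 87.2% of A20 cKO cells. Tmem119 and Selplg stayed in 91.6% or more of the cells of every library, and Cst3 in 99.9% or more. Unthinned shares were higher, with Siglech at 81.4% to 95.1%, Cx3cr1 at 90.5% to 98.9% and Slc2a5 at 12.6% to 62.1% over the 8 libraries.

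**Figure D3:**
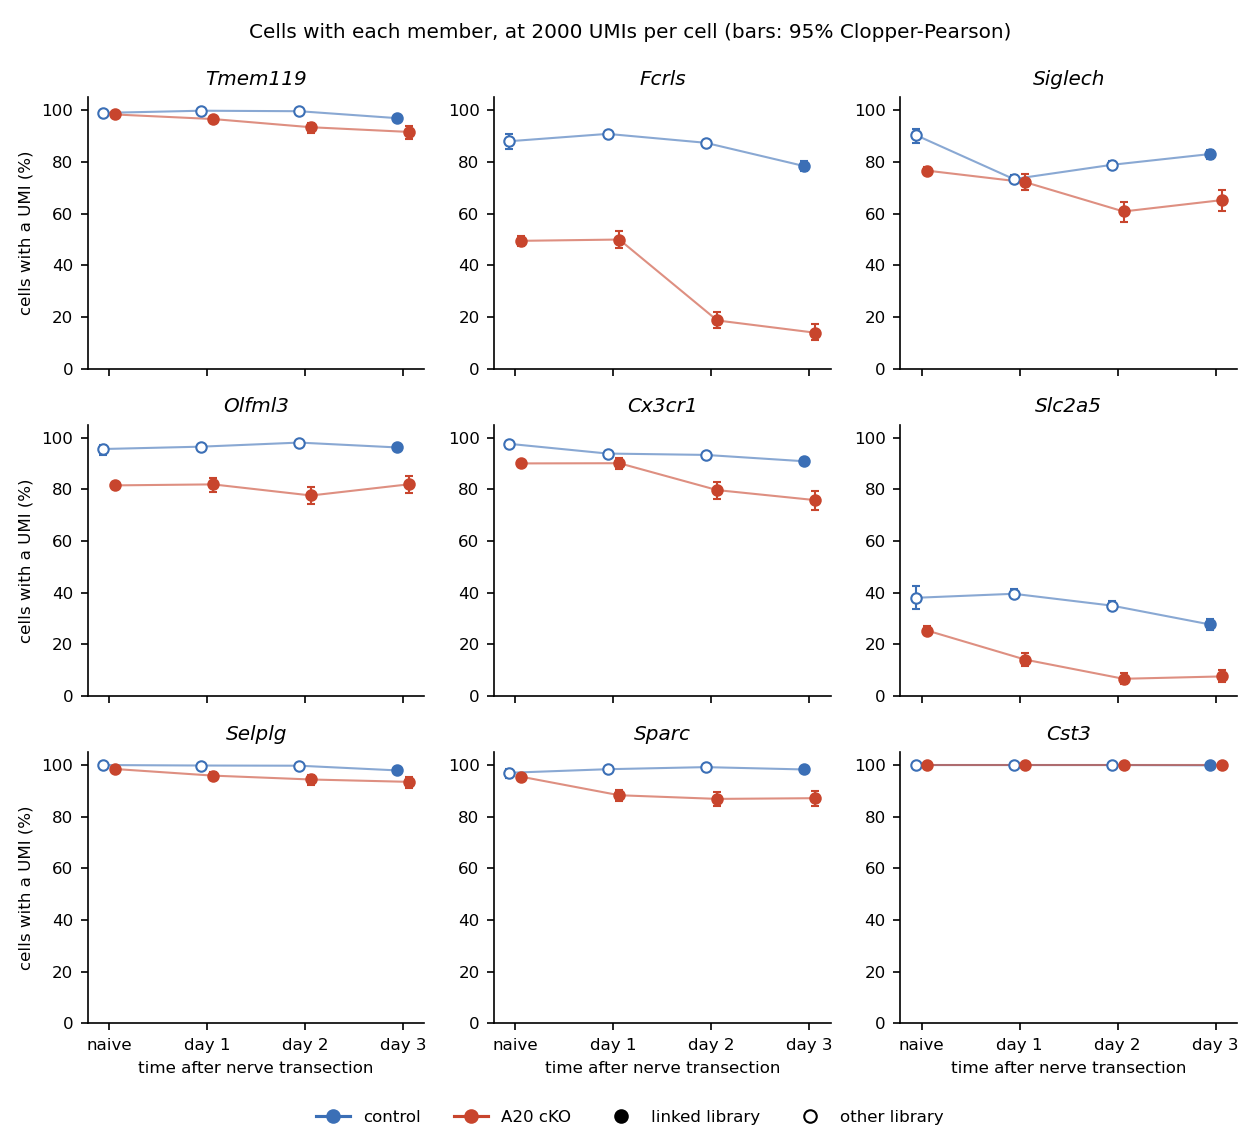
Share of cells with at least 1 UMI of each member (vertical axis, percent, 0 to 100) by time after transection, after thinning to 2000 UMIs per cell, with colours and filled or open circles for genotype and linked libraries and bars for 95% Clopper-Pearson intervals. Fcrls separates the genotypes most, at 78.5% to 90.9% in the controls and at most 50% in A20 cKO, while Cst3 is at the top of its panel throughout.

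As a measure of free RNA, 21 kept cells were examined whose share of the 6 microglia markers was under 0.25 times that of the median cell and which held at least 3 markers of another cell type. All 21 were in linked libraries, with a median of 1297 UMIs against 3534 in the other kept cells. Fcrls and Slc2a5 were found in 0 of 21 of them, which allows a share of up to 14.3% by 3 counts and 16.1% by the Clopper-Pearson interval. These cells were shallower than those they are set against, and 6 of them were in A20 cKO days 2 and 3. The unthinned Fcrls shares of those days, 31.9% and 26.7%, lay above both limits, but came from deeper cells. Thinned to 1000 UMIs, nearer the depth of the 21 cells, they were 9.9% and 8.1%, below both limits. The unthinned Slc2a5 shares, 12.6% and 15.95%, did not lie above both limits. On those days neither gene's share can be told from background in this way. Cx3cr1 was found in 1, Siglech and Olfml3 in 2, Tmem119 in 3 and Selplg in 5 of the 21 cells, Sparc in 13 and Cst3 in 21. Sparc and Cst3 are also transcribed by astrocytes and by cells of vessels and meninges, so their UMIs in these cells cannot be read as free RNA. Leaving these 21 cells out moved no member's ratio by more than 0.003.

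Taken per cell, the number of members found out of 9 was lower where the levels were lower. At 2000 UMIs its mean was 8.06, 7.92, 7.91 and 7.69 in the controls and 7.15, 6.89, 6.18 and 6.17 in A20 cKO. Cells with all 9 members made up 27.3%, 24.3%, 21.8% and 15.3% of the controls and 10.5%, 6.39%, 0.639% and 0.929% of A20 cKO. Cells with 5 or fewer made up at most 1.06% of a control library and 7.70%, 14.3%, 24.9% and 23.8% of the A20 cKO libraries. The mean sum of member UMIs per cell was 152, 108, 109 and 84.3 in the controls and 79.6, 66.5, 41.3 and 38.2 in A20 cKO, most of it Cst3. Without Cst3 it was 32.1, 31.01, 30.6 and 25.1 in the controls and 22.3, 19.2, 14.8 and 15.1 in A20 cKO.

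**Figure D4:**
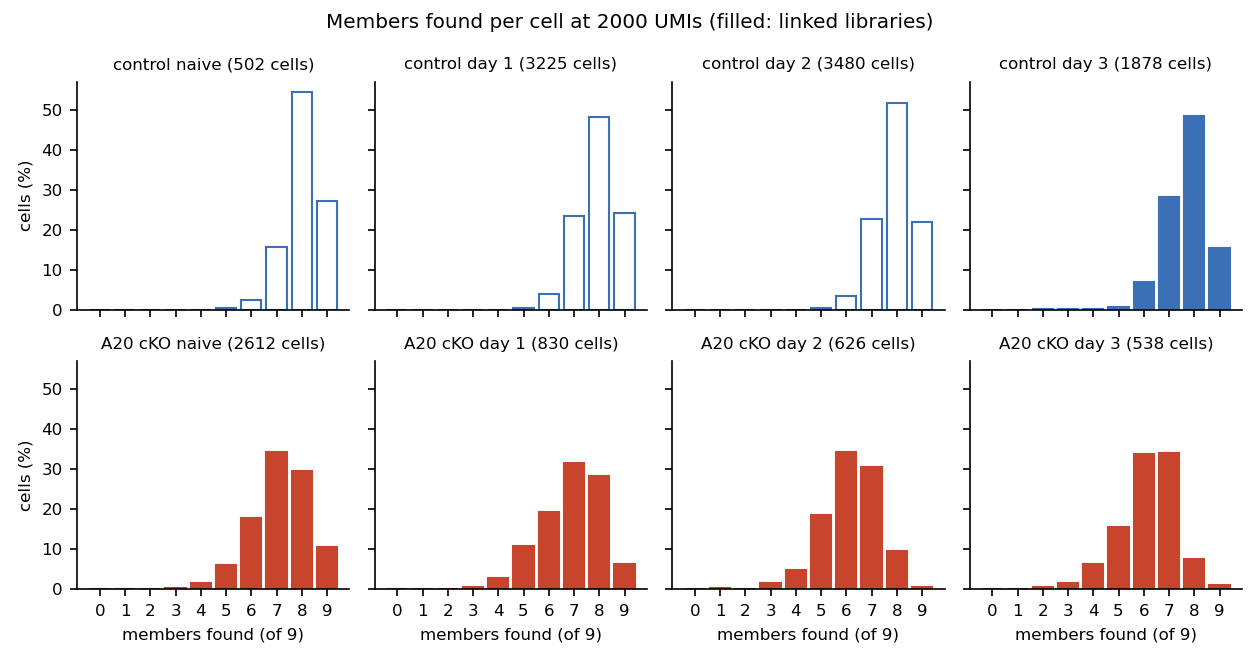
Share of cells (vertical axis, percent) by the number of members found out of 9 (horizontal axis) in each library, at 2000 UMIs per cell, filled bars marking the linked libraries. The peak is at 8 members in the 4 control libraries, at 7 in A20 cKO naive and day 1, at 6 in A20 cKO day 2 and at 6 and 7 in A20 cKO day 3.

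The spread between cells of 1 library differed by gene. A variance equal to the mean is what random sampling of a level common to all cells gives. Fcrls was at 1.47, 1.45, 1.25 and 1.66 times its mean in the controls and at 2.12, 2.57, 1.28 and 1.64 in A20 cKO. The value was thus highest in A20 cKO naive and day 1, where the mean was 1.07 and 1.28 UMIs. On A20 cKO days 2 and 3 the mean was 0.24 and 0.20 UMIs. Variance over mean also rises with the mean, so it does not rank how unequal the cells of these libraries were. Cst3 was at 5.35 to 10.6 in the controls and at 18.3, 16.2, 4.70 and 5.82 in A20 cKO, and again the naive and day 1 libraries stood apart. Slc2a5 and Siglech stayed between 0.936 and 1.28 in all 8 libraries. For the remaining members the values lay between 1.13 and 1.92.

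Members varied together in single cells most clearly in the same A20 cKO libraries. Over the 36 pairs of members, the median Pearson r across thinned cells was 0.04, 0.03, 0.03 and 0.07 in the controls and 0.14, 0.15, 0.06 and 0.08 in A20 cKO. The cells of a library share 1 preparation and were brought to 1 depth, and a weak r in such sparse counts is a description only. The pair with the highest r was Fcrls and Cst3, at 0.41 over 2612 cells of A20 cKO naive and 0.40 over 830 cells of A20 cKO day 1. In control day 3 the highest was Selplg with Cst3, at 0.30 over 1878 cells.

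Cells with and without an Fcrls UMI were compared within each library, at 2000 UMIs, for the other 8 members. In A20 cKO naive, 1319 cells had none and 1293 had at least 1. All 8 other members were lower in the cells without, against 58.9% of 6731 genes, and each interval lay below 0, against 13.3%. Intervals narrow with the UMIs of a gene, so this share depends on level, and the median of all genes was at −0.05. Slc2a5 stood at 109 CPM in cells without against 212 CPM in cells with Fcrls, a ratio of −0.95 (−1.17 to −0.75). Cst3 stood at 22303 against 35046 CPM, at −0.65 (−0.67 to −0.64), and Cx3cr1 at 1254 against 1661 CPM, at −0.41 (−0.47 to −0.34). On day 1 of A20 cKO all 8 were again lower in the 415 cells without than in the 415 with, against 58.8% of 3138 genes. Their ratios ran from −0.15 for Tmem119 to −1.35 (−1.95 to −0.80) for Slc2a5, with Olfml3 at −0.79 (−0.93 to −0.65). All 8 intervals lay below 0, against 13.2% of genes. In the 4 controls the median over the 8 members lay between −0.05 and −0.02, and the intervals of 1, 1, 1 and 3 members lay below 0 in naive to day 3, against 3.03%, 2.12%, 2.49% and 3.12% of genes. On A20 cKO days 2 and 3, with 117 and 75 cells with Fcrls, the medians were −0.13 and −0.14, with intervals below 0 for 3 and 2 members against 3.83% and 3.61% of genes. Whether the A20 cKO and control differences were unequal was not tested.

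The cells of A20 cKO naive without Fcrls also had other levels for genes outside the list. P2ry12, a purinergic receptor of resting microglia, was at 2143 against 3691 CPM (−0.78), and Trem2 at 1302 against 1593 CPM. Cxcl13, a chemokine, was at 725 against 121 CPM (2.58, 2.41 to 2.76), Ifitm3, an interferon-induced protein, at 1001 against 354 CPM (1.498), Axl, a receptor tyrosine kinase, at 192 against 80.4 CPM (1.25), and Apoe, apolipoprotein E, at 963 against 630 CPM (0.61). In control day 3, Cxcl13 reached at most 4.07 CPM in either set of cells, Ifitm3 was at 506 against 512 CPM, and Apoe was at 379.95 against 250 CPM.

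**Figure D5:**
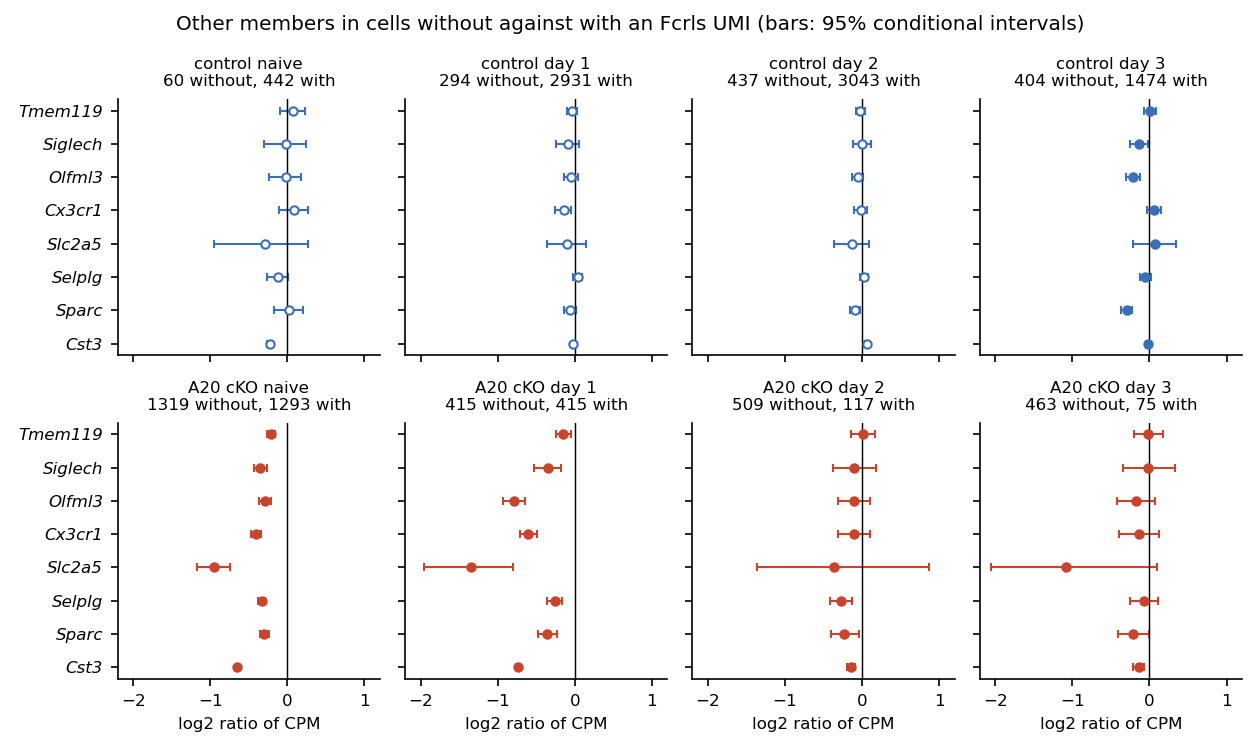
Log2 ratio of CPM (horizontal axis) of the other 8 members in cells without against cells with an Fcrls UMI, in each library at 2000 UMIs per cell, with bars for 95% conditional intervals and filled circles for the linked libraries. All 8 intervals lie left of 0 in A20 cKO naive and day 1, and Slc2a5 is farthest left in both, at −0.95 and −1.35.

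Cells chosen by other genes gave unequal values between libraries. In A20 cKO naive, 3 of 9 members were 2-fold lower in 154 thinned cells without P2ry12 than in the other 2458, against 4.47% of genes: Slc2a5 at −2.17 (−3.24 to −1.38), Fcrls at −2.09 (−2.59 to −1.65) and Cst3 at −1.21 (−1.25 to −1.16). In the other libraries with at least 50 such cells 0 of 9 were, in control days 2 and 3 (medians −0.10 and −0.34, against 7.27% and 3.42% of genes) and in A20 cKO days 1, 2 and 3 (medians −0.42, −0.09 and −0.27, against 0.924%, 0.178% and 0.159%). Cells with a Cxcl13 UMI, 342 in A20 cKO naive, had Slc2a5 at −1.002, Fcrls at −0.70 and Cst3 at −0.51 there, which makes 1 of 9 members 2-fold lower against 0.579% of genes. On A20 cKO day 1 Slc2a5 at −1.55 and Fcrls at −1.20 passed 2-fold (2.23%), and on days 2 and 3 0 of 9 did (0.133% and 0.212%), with medians of −0.05 and −0.09.

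Dividing cells were those in which 3 or more of 18 core G2/M genes were found without thinning. In 1127 such cells of control day 2, 0 of 9 members were 2-fold lower (0.0555% of genes) and the lowest was Cst3 at −0.31. In 234 of control day 3, 0 of 9 were (1.43%), the lowest being Slc2a5 at −0.76 (−1.05 to −0.50). In 93 of A20 cKO naive 2 of 9 were 2-fold lower, against 5.12% of genes, Slc2a5 at −1.63 (−2.33 to −1.07) and Fcrls at −1.35 (−1.66 to −1.07). In A20 cKO days 2 and 3, 0 of 9 were (1.24% and 2.24%), with Fcrls lowest on day 2 at −0.89 and Cst3 on day 3 at −0.31.

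A list of 20 other homeostatic microglia genes was followed beside the 9. In A20 cKO against A20 cKO naive all 20 were below 0 on each day, as were 4074 of 8919, 5113 of 8921 and 5409 of 8797 genes. Of the 20, 1, 5 and 5 were 2-fold lower on days 1, 2 and 3 (1.39%, 2.65% and 2.00% of genes). On day 3 these were P2ry12 at −1.71, Crybb1, a crystallin, at −1.58, Gpr34, a lysophospholipid receptor, at −1.40, Adgrg1, an adhesion receptor, at −1.26 and Ltc4s, leukotriene C4 synthase, at −1.14. The median of the 20 was −0.54 there against −0.65 for the 9 members. In A20 cKO day 3 against control day 3, 19 of 20 were below 0, against 5435 of 8488 genes. There 3 of 20 were 2-fold lower (2.40% of genes), Ltc4s at −1.79, Crybb1 at −1.43 and P2ry12 at −1.37. In the controls 1, 3 and 3 of 20 were 2-fold lower than naive on days 1, 2 and 3 (7.25%, 6.28% and 2.32% of genes), where 0, 0 and 1 of the 9 were. Sall1, a transcription factor of microglia, and Mertk, a phagocytic receptor, were among those of day 2 at −1.03 and −1.02, and stood at −0.66 and 0.03 on day 3. In A20 cKO naive against control day 3, 0 of 20 were 2-fold lower (1.49% of genes) and the median was 0.14, while Fcrls and Olfml3 were at −1.07 and −0.92.

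Genes of activated microglia moved less evenly. Of 16 listed, 15 could be compared in the A20 cKO libraries. Against A20 cKO naive 1, 2 and 7 of these were 2-fold higher on days 1, 2 and 3 (1.56%, 2.86% and 1.92% of genes). None of them was 2-fold lower (1.39%, 2.65% and 2.00% of genes). On day 3 the 7 were Spp1, Cst7, Itgax, Lgals3, Apoe, Axl and Lpl, from 1.08 to 2.08. Against control day 3, 5 of 15 were 2-fold higher in A20 cKO day 3 (1.86% of genes), among them Itgax at 3.91, Lgals3 at 2.90 and Apoe at 2.64. In the controls 0 of 12, 1 of 14 and 3 of 13 tested were 2-fold higher than naive on days 1, 2 and 3 (3.82%, 5.92% and 8.76% of genes). Those 2-fold lower were 2, 1 and 2 on the same days (7.25%, 6.28% and 2.32% of genes). Apoe was lower than naive on each day, at −1.18, −1.25 and −1.84, where control day 3 lies across the line. Of 12 interferon response genes, 12 were 2-fold higher in A20 cKO naive and 11 in control day 3 than in control naive (7.43% and 8.76% of genes). Both of these comparisons cross the line. Between A20 cKO naive and control day 3, 0 of these 12 differed by 2-fold (1.49% of genes lower and 0.964% higher). In A20 cKO day 3 against control day 3, also within the linked libraries, 5 of the 12 were 2-fold higher (1.86% of genes). There 0 of the 12 were 2-fold lower (2.40% of genes), and their median was 0.84. The part of the interferon response genes in the member differences was not tested.

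Genes with the most similar profiles were looked for among 3259 other genes whose mean reached 50 CPM, by Pearson r of log2 CPM over the 8 libraries, which fall into the 2 sets above, so that r is a description and partly reflects that division. For Selplg they were Vsir (r = 0.99 over 8 and 0.97 over the 5 linked libraries), Mob4 and P2ry13. Vsir, an immune checkpoint receptor, stood at 1727 CPM in control naive and 475 CPM in A20 cKO day 3, and P2ry13, a purinergic receptor, at 961 and 264 CPM. For Fcrls they were Cdk5r1, Mfap3 and Camk2n1, the first at 95.03, 82.1, 83.1 and 77.4 CPM in the controls and at 52.9, 55.1, 29.0 and 22.8 CPM in A20 cKO. For Slc2a5 they were Cxxc5, Tbxas1, the gene of thromboxane synthase, and St3gal5, a ganglioside synthase, and for Siglech Jam2, Fchsd2 and Snn. For Cst3 they were Commd8, F11r and Prkca, for Tmem119 Fam212a, Tsen34 and Tubb2a, for Cx3cr1 Kdm2b, Mtfr1l and Erf, for Olfml3 R3hdm4, Tecr and Tmem9b, and for Sparc Cript, Idh3g and Itgb5, an integrin subunit. Among the members themselves, r over the 8 libraries ran from 0.56 for Cx3cr1 with Sparc to 0.96 for Selplg with Cst3. Over the 5 linked libraries the highest was Tmem119 with Selplg, at 0.99.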

How the data were processed

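The authors deposited raw UMI counts, not normalized, as 1 matrix of genes and barcodes for each library. Per the submitters' processing notes Cell Ranger 2.1.1 and mm10 were used. Methods and labels name different kit versions. The study excluded doublets when sorting, no doublet caller was run here, and the study's integration of libraries was not used. The 9 members and all gene lists were chosen with earlier results of these data known. Besides the members, genes are named from the lists (with examples by size, chosen after their values were seen) and as the 3 with the most similar profile to each member among genes with a mean of 50 CPM or more, leaving out predicted genes and those of mitochondria, ribosomal proteins, Xist and the Y chromosome. Clec7a and Trac of the lists were not used here.

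UMIs were summed over the kept cells of each library and given as CPM, with 0.5 UMIs added before log2 ratios. Genes with a sum of 100 UMIs or more over both libraries were tested for the 2-fold limit. Intervals at 95% are exact Poisson (levels), Clopper-Pearson (shares) and conditional binomial (ratios). Each group was 1 library, so no test was run and no p-value is given. Thinning drew 2000 UMIs from each cell without replacement. Coordinates are from GENCODE M21 on GRCm38, which matched 27645 of 27998 gene identifiers (98.7%), and promoters are from RefSeq. Sums and ratios were checked on simulated counts. Python 3.11.15 was used with numpy 2.4.6, scipy 1.17.1, pandas 2.3.3 and matplotlib 3.10.9. Alternatives changed the scaling, the cell filter, the fold, the thinning and the cells included.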

Additional observations from a re-analysis of the deposited data

Results flagged for a closer look

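In 7 cases the ratio to the naive library of the same genotype lay above 0 in one genotype and below 0 in the other, beyond counting error in both. Each group was 1 library, so the difference was not tested, and control day 3 and control naive lie on different sides of the division between libraries.

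Sparc showed this on all 3 days. On day 1 it stood at 0.08 in control and −0.64 in A20 cKO, a difference of −0.72. On day 2 it stood at 0.29 and −0.63, a difference of −0.91, and on day 3 at 0.18 and −0.41, a difference of −0.59. Tmem119 stood at 0.33 and −0.27 on day 1, a difference of −0.60, and at 0.16 and −0.45 on day 2, a difference of −0.61. Olfml3 stood at 0.36 and −0.10 on day 2, a difference of −0.45. Cx3cr1 was the only case in the other direction, at −0.46 in control and 0.09 in A20 cKO on day 1, a difference of 0.55.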

How the results depend on the processing

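Single libraries, pooled animals and the division between linked and other libraries limit every comparison, and shares of cells with a UMI move with depth. No paired analysis was possible because each group had 1 library, so the replicate number 1 only names it. With a fold of 1.5 the members counted lower were 2, 1 and 3 of 9 in control days 1, 2 and 3 against naive (21.4%, 19.8% and 10.3% of genes), 2, 5 and 5 on the same days of A20 cKO against their naive library (5.29%, 10.3% and 9.33%), 5, 7, 8 and 7 in A20 cKO against control in naive animals and on days 1, 2 and 3 (9.04%, 10.7%, 14.6% and 9.91%), and 2 in A20 cKO naive against control day 3 (4.84%). By the mean of cell CPM, 0 members passed 2-fold in control day 3 against naive and 0 in A20 cKO naive against control day 3. Without thinning, members found per cell averaged 8.30, 8.50, 8.46 and 8.07 in control naive to day 3 and 7.59, 7.41, 6.99 and 6.95 in A20 cKO. At 1000 UMIs they averaged 6.99, 6.88, 6.89 and 6.50, and 6.00, 5.64, 4.81 and 4.85, and the median variance over mean was 1.197, 1.098, 1.14 and 1.33, and 1.32, 1.28, 1.26 and 1.30. Without shared barcodes control day 1 averaged 7.96. Of 99 member ratios, median-of-ratios scaling changed the sign of 3 and the side of 2-fold of 1, the mean of cell CPM 1 and 2, totals without Cst3 2 and 1, and leaving out the deepest cells 0 and 1, while the other 6 alternatives changed none. Olfml3 stood at −1.001 in A20 cKO day 3 against control day 3 without the deepest cells. The largest shifts were of Fcrls, −0.24 by the mean of cell CPM and 0.24 without dividing cells. The cause of these shifts was not tested. Totals without Cst3 and sums without cells of other types were chosen after seeing the data.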
